A study of Homo sapiens with 13 samples.

Results

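The genes described here are those of the human potassium channels, the family of membrane proteins that let potassium cross the cell membrane, together with their auxiliary subunits. They were chosen by symbol: 95 of the 67882 genes in the count table bore a symbol made of KCN, further letters and a number. Of these, 30 held at least 130 raw counts summed over the 13 libraries and are called measured, and 65 held fewer and are called not measured. RNA had been sequenced from PC3 cells, an established human prostate cancer line, after 48 h of treatment. Every group carried a short hairpin RNA against TIMP1, the gene of a secreted metalloproteinase inhibitor, and libraries without the hairpin were not analysed here. The groups were Vehicle (3 libraries), Docetaxel at 1 nM (4 libraries), Adapalene at 5 µM (3 libraries) and Combo, both drugs together (3 libraries, doses not restated in the labels). Docetaxel belongs to the taxanes, drugs that bind microtubules and block their breakdown. Adapalene is a retinoid drug, a ligand of the retinoic acid receptors. The replicates are described as technical, so each p-value measures only the spread between libraries of 1 cell line and not between independent cultures.

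Potassium channels set the resting membrane potential and shape volume control, secretion and the electrical behaviour of cells, and in epithelial tumour lines they have been studied for their links to proliferation and migration. Voltage-gated pore subunits open on depolarisation, and modifier subunits of that family form channels only together with them. Calcium-gated channels couple the potential to intracellular calcium, inward rectifiers and the tandem pore domain leak channels hold the resting potential, and auxiliary subunits change the gating or traffic of the pores.

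Levels are given as CPM, read counts relative to library size, after scaling of the libraries by TMM. Library totals ran from 11948720 to 16235041 counts, so genes near 1 CPM rest on few reads and were measured with wide error. Between 54 and 56 of the 95 genes had at least 1 count in each Vehicle library, and 63 to 67 in each Docetaxel library, 58 to 63 in each Adapalene library and 58 to 64 in each Combo library. The number of genes detected over the whole table was likewise lowest with Vehicle (21836 to 22938, against 22688 to 25058 in the treated libraries). TIMP1 was still detected in every library, at 55.0 to 65.0 CPM with Vehicle, 56.2 to 71.0 with Docetaxel, 70.4 to 105 with Adapalene and 98.1 to 111 with Combo. Every library with adapalene thus lay above every Vehicle library for TIMP1. The 6 epithelial markers, checked against the labelled cell type, summed to 2925 to 3394 CPM with Vehicle, 2964 to 3881 with Docetaxel, 2423 to 2533 with Adapalene and 2348 to 3088 with Combo. The 6 fibroblast markers summed to 2.698 to 3.41 CPM with Vehicle, 4.43 to 6.20 with Docetaxel, 3.42 to 4.31 with Adapalene and 3.92 to 4.57 with Combo. The 6 leukocyte markers summed to 1.21 to 1.81, 2.01 to 2.75, 1.87 to 2.74 and 2.54 to 3.36 CPM in the same order, and the 4 neuronal markers to 7.81 to 9.73, 13.3 to 17.8, 13.3 to 15.9 and 10.3 to 17.2 CPM. The last 3 sums were thus low but higher in every treated library than in every Vehicle library, SYT1 made up most of the neuronal sum, and the epithelial sum with Adapalene lay below that with Vehicle. The part of these differences in the results below was not tested. In 1 library of each group (replicate 3, or 4 for Docetaxel) mitochondrially encoded genes took over 2% of counts. In those 4 libraries the auxiliary genes KCNAB3 and KCNMB3 were at their highest in the group and the leak channel gene KCNK5 at its lowest.

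By role, 7 of 30 voltage-gated pore genes were measured, 3 of 10 modifier genes, 3 of 8 calcium-, sodium- or pH-gated genes, 5 of 16 inward rectifier genes, 6 of 15 tandem pore domain genes and 6 of 16 auxiliary genes. Of the 65 genes that were not measured, 10 had 0 counts in every library, 28 had 1 to 10 counts in all and 27 had 11 to 129. All 30 measured genes also passed the filter on low counts, as did 3 of the others (KCNE3, KCNN3 and KCNS3). Near the limit lay KCNQ5 with 179 counts above it, and KCNS3 with 129 and KCNN3 with 124 just below it. The modifier gene KCNS3 stood at 0.942, 0.426 and 0.991 CPM with Vehicle, 0.640, 0.634, 1.02 and 0.791 with Docetaxel, 0.718, 1.13 and 0.751 with Adapalene, and 0.436, 0.363 and 0.448 with Combo. KCNN3, a small conductance calcium-gated channel gene, stood at 0.652, 0.426 and 0.372 CPM with Vehicle, 0.427, 0.634, 0.426 and 0.669 with Docetaxel, 1.08, 1.29 and 0.834 with Adapalene, and 0.747, 0.798 and 0.597 with Combo. Because the limit is on the sum over all groups, a gene that is low with Vehicle can be measured through 1 treatment: 110 of the 179 counts of KCNQ5 came from Docetaxel libraries, and 237 of the 297 counts of KCNK9 and 185 of the 254 of KCNK15 from libraries with adapalene.

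**Figure D1:**
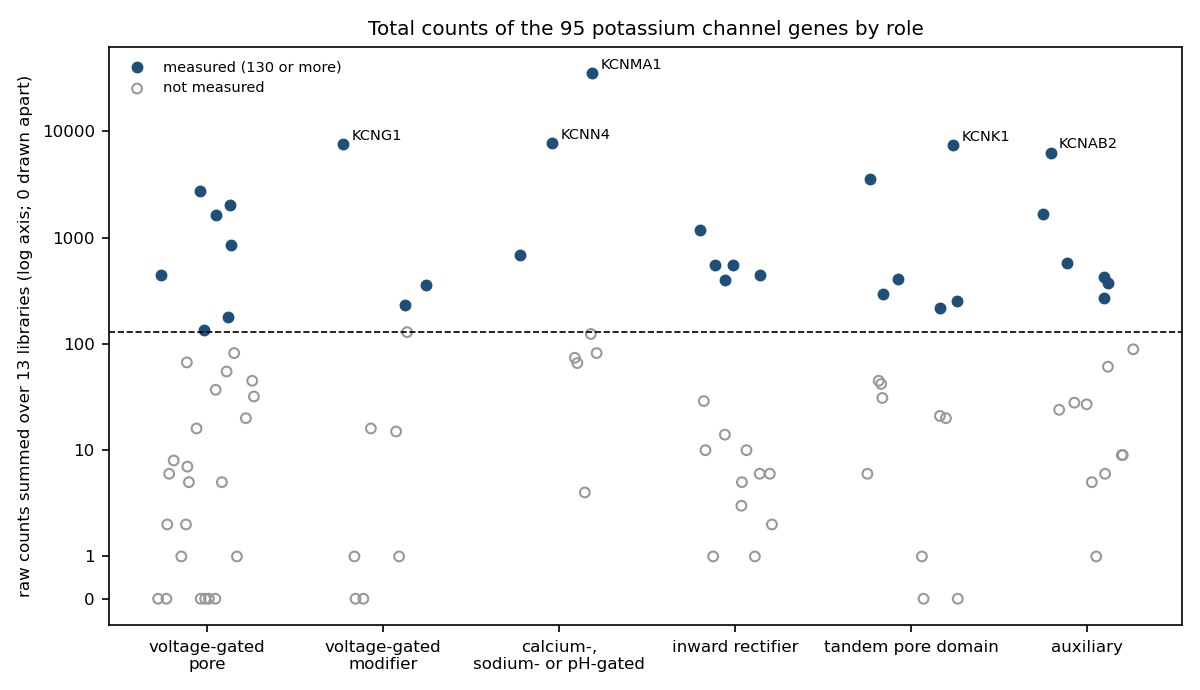
Raw counts summed over the 13 libraries (log axis, genes at 0 drawn apart) for each of the 95 genes, by role on the horizontal axis, with filled points for the 30 measured genes and the dashed line at 130 counts. KCNMA1 stands highest with 35199 counts, and most genes of every role lie under the line.

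Counts were concentrated in a few genes. KCNMA1, the pore of the large conductance calcium- and voltage-gated channel, took 44.8% ± 1.12 of the family's counts with Vehicle (SD, n = 3), 42.6% ± 1.77 with Docetaxel (n = 4), 38.6% ± 3.12 with Adapalene (n = 3) and 36.3% ± 3.03 with Combo (n = 3). Corrected for exon length, the highest levels with Vehicle were those of KCNN4, the intermediate conductance calcium-gated channel, at 14.6 ± 2.93 CPM per kb, and of the leak channel KCNK1 at 9.79 ± 0.185 CPM per kb (SD, n = 3). KCNG1, a modifier subunit, followed at 6.62 ± 0.948 CPM per kb, KCNMA1 at 6.05 ± 0.447 and KCNAB2, a cytoplasmic beta subunit, at 3.71 ± 0.321. The same 5 genes led per kb of the longest coding transcript, where KCNN4 stood at 22.2 ± 4.45, KCNMA1 at 17.9 ± 1.32, KCNK1 at 16.4 ± 0.311, KCNG1 at 16.3 ± 2.33 and KCNAB2 at 8.29 ± 0.717 CPM per kb. By the larger of the SDs of each pair, the order of KCNG1 and KCNMA1 per kb of exon is not settled by these libraries. Per kb of transcript neither is that of KCNN4 and KCNMA1, of KCNMA1 and KCNG1, or of KCNK1 and KCNG1.

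The promoters of 5 genes called against Vehicle in the results that follow are shown, to set those that rose with docetaxel (KCNQ5, KCNJ2 and KCNK1) beside KCND1 and KCNK6, which rose with adapalene. They are the 250 bases before the RefSeq start, from RefSeq on GRCh38.p14, written 5′ to 3′ on the strand of the gene, with GGGCGG (the GC box) and TATAAA in capitals where either strand matched and overlapping matches run together. The gene places printed elsewhere are from GENCODE, whose starts can differ. By those places the KCNJ2 and KCNQ5 windows lie inside the gene (starts 70168673 and 72621792). The KCNK1 window runs past the GENCODE start (233614004).
KCND1, chrX:48971845-48972094, minus strand: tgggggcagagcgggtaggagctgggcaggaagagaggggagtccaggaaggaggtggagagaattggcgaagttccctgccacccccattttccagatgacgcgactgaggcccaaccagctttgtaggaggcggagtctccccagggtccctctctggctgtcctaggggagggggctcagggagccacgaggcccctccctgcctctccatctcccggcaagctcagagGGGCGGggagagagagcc
KCNK6, chr19:38319595-38319844, plus strand: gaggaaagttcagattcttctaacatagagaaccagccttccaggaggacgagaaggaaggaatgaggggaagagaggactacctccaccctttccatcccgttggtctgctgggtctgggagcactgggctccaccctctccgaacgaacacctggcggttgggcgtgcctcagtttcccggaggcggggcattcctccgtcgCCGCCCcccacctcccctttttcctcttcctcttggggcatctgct
KCNK1, chr1:233613856-233614105, plus strand: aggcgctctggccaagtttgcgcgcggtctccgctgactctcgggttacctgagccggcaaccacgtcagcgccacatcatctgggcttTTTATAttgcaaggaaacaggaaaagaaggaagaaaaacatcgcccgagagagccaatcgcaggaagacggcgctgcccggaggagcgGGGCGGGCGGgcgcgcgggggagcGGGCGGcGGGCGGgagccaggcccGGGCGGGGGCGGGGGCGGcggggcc
KCNQ5, chr6:72621814-72622063, plus strand: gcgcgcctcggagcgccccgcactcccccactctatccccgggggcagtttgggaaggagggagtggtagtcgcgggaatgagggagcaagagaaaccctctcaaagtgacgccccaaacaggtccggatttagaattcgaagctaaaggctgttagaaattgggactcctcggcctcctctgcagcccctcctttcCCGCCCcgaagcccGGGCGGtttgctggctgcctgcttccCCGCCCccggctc
KCNJ2, chr17:70169282-70169531, plus strand: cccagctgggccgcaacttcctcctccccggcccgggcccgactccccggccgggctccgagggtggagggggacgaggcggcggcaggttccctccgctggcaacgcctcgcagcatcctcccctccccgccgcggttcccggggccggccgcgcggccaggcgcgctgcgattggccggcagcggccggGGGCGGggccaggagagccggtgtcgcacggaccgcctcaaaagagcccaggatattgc
Of the 30 measured genes, 17 had a window in the RefSeq promoter table. GGGCGG was found on either strand in 14 of these 17 windows and in 42.6% of all 35116 windows of the same length, and TATAAA in 3 of 17 and 10.7% of all. The KCNK1 window held 7 GGGCGG matches, some overlapping, and 1 TATAAA match on the opposite strand, 161 to 156 bases before the start. The GC content of the 5 windows was 65.6% for KCND1, 59.6% for KCNK6, 69.2% for KCNK1, 64.0% for KCNQ5 and 77.6% for KCNJ2, against a median of 58.0% over all windows. AGGTCA, the half-site of retinoid and related nuclear receptors, was found in KCNAB2, KCNJ14 and KCNMA1 (3 of 17, 12.1% of all windows), and TGANTCA, the AP-1 motif, in KCNMA1 and KCNMB3 (2 of 17, 6.57% of all). The direct repeat of that half-site (AGGTCA, then NNNNN, then AGGTCA) was in none of the 17 and in 0.00285% of all windows. These matches describe letters only, and no match says only that the letters are not in the window.

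Against Vehicle, docetaxel raised 3 potassium channel genes and lowered 3, adapalene raised 6 and lowered 1, and the combination raised 8 and lowered 1, among 30 measured. The test was edgeR's quasi-likelihood test over all 15734 genes that passed the filter, with Benjamini-Hochberg adjustment, and a gene is called when its adjusted p lies under 0.05. With Docetaxel 6 of 30 genes were called in all, against 25.9% of all genes tested (13.2% higher, 12.8% lower). With Adapalene 7 of 30 were called, against 18.4% of all genes (9.25% higher, 9.16% lower). With Combo 9 of 30 were called, against 25.8% of all genes (13.5% higher, 12.3% lower). In both directions together these counts lie near the background of all genes. They include KCNK9, KCNK15 and KCNQ5, which reached the 130-count limit through libraries in which they were high, and the genes of the background were not chosen by that limit, so neither the split by direction nor the median is read against it. The median log2 fold change of the 30 genes was 0.07 with Docetaxel (all genes −0.02), 0.27 with Adapalene (all genes 0.02) and 0.18 with Combo (all genes 0.02). The 3 comparisons share the Vehicle libraries and are not independent of each other. In a culture measured in bulk, fewer cells with a transcript and less of it per cell cannot be told apart.

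**Figure D2:**
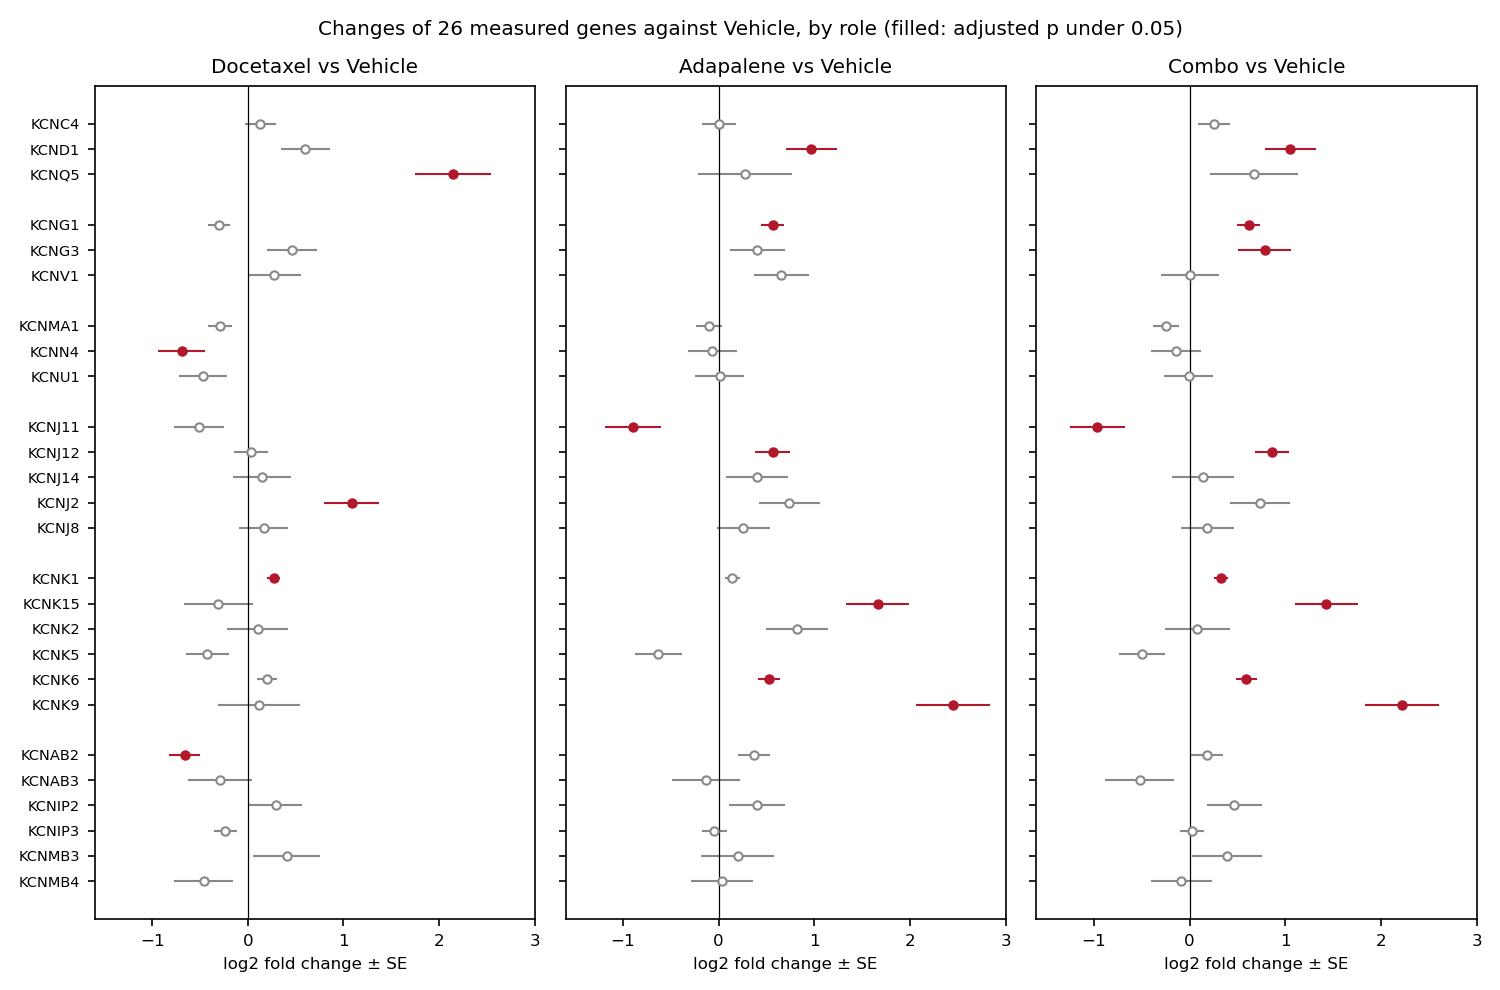
Log2 fold change against Vehicle (horizontal axis, bars are SE) of 26 of the 30 measured genes grouped by role, for Docetaxel, Adapalene and Combo, with filled points where the edgeR adjusted p lies under 0.05. KCNQ5 stands apart with Docetaxel at 2.14, and KCNK9 and KCNK15 with Adapalene at 2.45 and 1.66 and with Combo at 2.22 and 1.43.

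Among the tandem pore domain leak channels, KCNK9, KCNK15 and KCNK6 rose with adapalene, alone and in the combination, and KCNK1 rose with docetaxel and the combination. KCNK9 (ENSG00000169427, chromosome 8, 139600838 to 139704109, minus strand), an acid-sensitive leak channel, stood at 0.507, 0.710 and 0.496 CPM with Vehicle, 0.284, 0.563, 0.767 and 0.852 with Docetaxel, 3.88, 2.74 and 2.75 with Adapalene, and 2.37, 3.77 and 1.94 with Combo. Every library with adapalene lay above every library without it. The log2 fold change was 2.45 with Adapalene (SE 0.39, edgeR adjusted p = 0.000534), 2.22 in Combo (SE 0.39, adjusted p = 0.00062) and 0.12 with Docetaxel (SE 0.43, adjusted p = 0.863). KCNK15 (ENSG00000124249, chromosome 20, 44745780 to 44752313, plus strand), which belongs by sequence to the same acid-sensitive subfamily, stood at 0.869, 0.710 and 0.744 CPM with Vehicle, 0.782, 0.704, 0.596 and 0.426 with Docetaxel, 2.94, 2.82 and 1.58 with Adapalene, and 1.56, 2.47 and 2.31 with Combo. Its libraries with adapalene again all lay above those without. Its log2 fold change was 1.66 with Adapalene (SE 0.33, edgeR adjusted p = 0.00285), and 1.43 in Combo (SE 0.33, adjusted p = 0.00488). Both genes were low with Vehicle, at 25 and 34 counts summed over 3 libraries.

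KCNK6 (ENSG00000099337, chromosome 19, 38319844 to 38332076, plus strand), a leak channel found partly on endosomes and lysosomes, stood at 13.3, 16.1 and 16.9 CPM with Vehicle, 18.3, 16.8, 18.5 and 17.4 with Docetaxel, 21.4, 21.3 and 24.0 with Adapalene, and 21.99, 21.5 and 26.6 with Combo. The libraries with adapalene lay above all others, and the Docetaxel libraries overlapped with Vehicle. Its log2 fold change was 0.52 with Adapalene (SE 0.11, edgeR adjusted p = 0.00603), and 0.59 in Combo (SE 0.11, adjusted p = 0.00172). KCNK1 (ENSG00000135750, chromosome 1, 233614004 to 233672512, plus strand), a weak inwardly rectifying leak channel, stood at 35.4, 34.9 and 36.2 CPM with Vehicle, 43.0, 45.1, 43.4 and 39.8 with Docetaxel, 39.9, 39.0 and 38.8 with Adapalene, and 43.7, 42.9 and 47.5 with Combo. Every Vehicle library lay below every library with a drug, and the change was small next to that of KCNK9. It rose by 0.27 on the log2 scale with Docetaxel (SE 0.07, edgeR adjusted p = 0.0107) and, in Combo, by 0.33 (SE 0.07, adjusted p = 0.00467), and differed by 0.14 with Adapalene (adjusted p = 0.193). The Docetaxel call on KCNK1 was lost without Vehicle replicate 2 (adjusted p = 0.0511) or without the filter on low counts (0.0980), and the calls on KCNK9, KCNK15 and KCNK6 against Vehicle were kept whichever of the 13 libraries was left out. KCNK2, a mechanosensitive leak channel, and KCNK5, one opened by alkaline pH, were called in no comparison. KCNK2 stood at 1.01 ± 0.267 CPM with Vehicle (SD, n = 3), 1.08 ± 0.354 with Docetaxel (n = 4), 1.78 ± 0.317 with Adapalene (n = 3) and 1.06 ± 0.0520 with Combo (n = 3). KCNK5 stood at 2.92 ± 0.60, 2.17 ± 0.290, 1.87 ± 0.478 and 2.05 ± 0.165 CPM in the same order, and its Adapalene difference (−0.63, edgeR adjusted p = 0.0866) was called without Vehicle replicate 3 (−0.80, 0.0451).

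**Figure D3:**
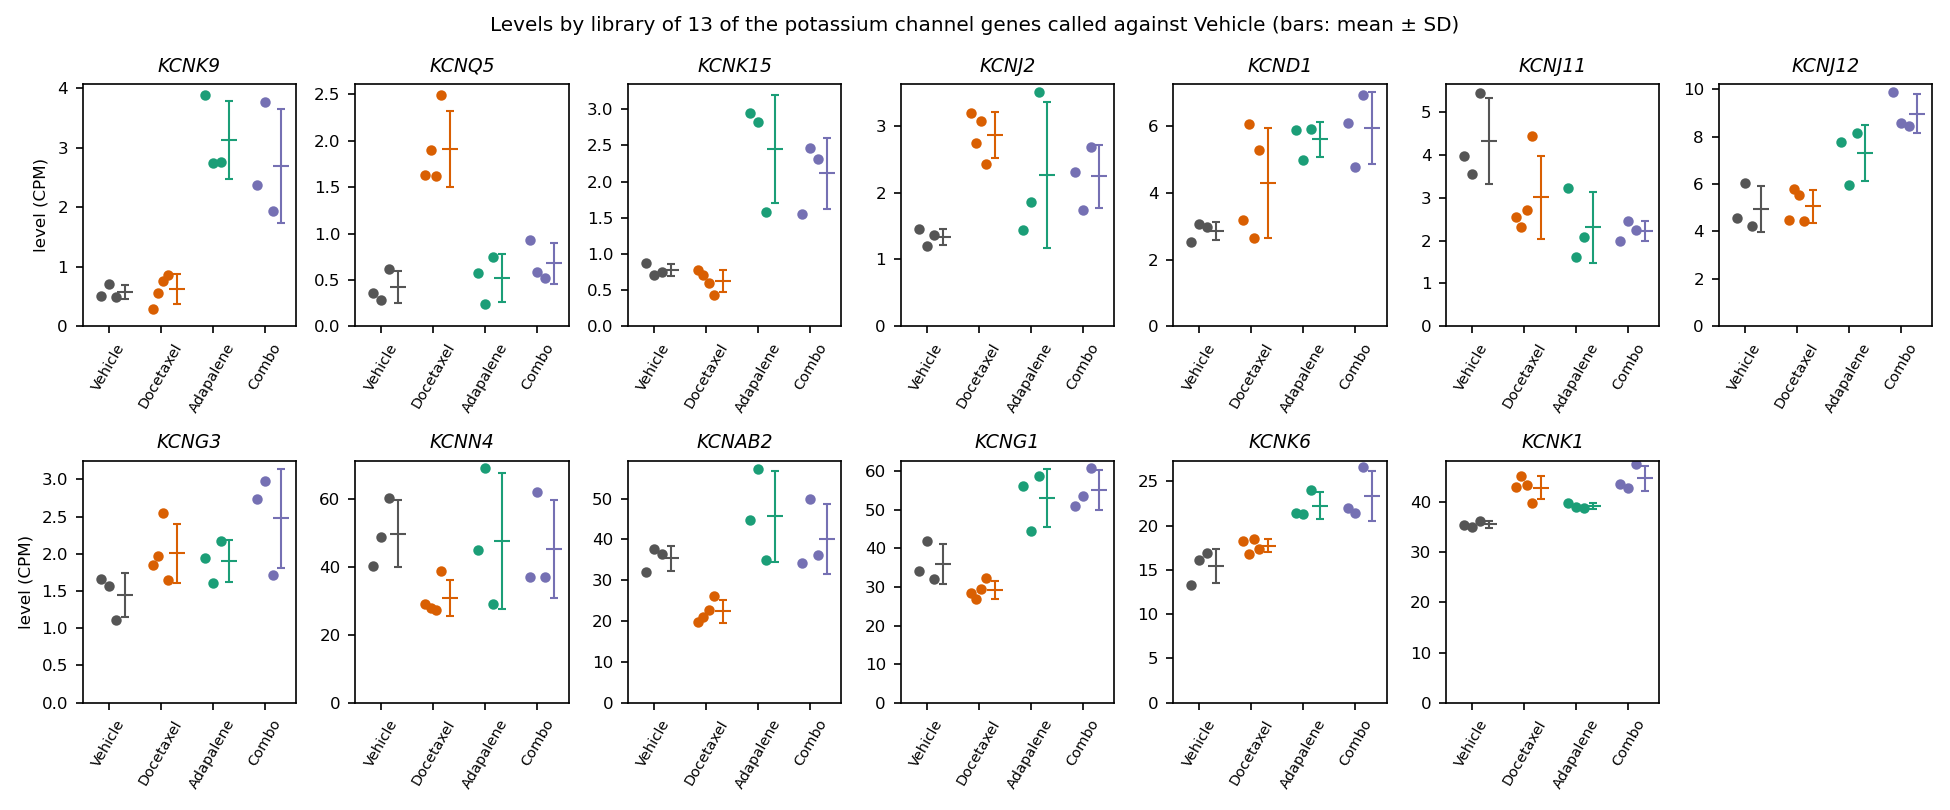
Level in CPM (vertical axes from 0, 1 point per library, bars are mean ± SD) of 13 of the 14 potassium channel genes called in at least 1 comparison with Vehicle, by group (Vehicle, Adapalene and Combo n = 3, Docetaxel n = 4). KCNK9 and KCNK15 are high in the 6 libraries with adapalene, and KCNQ5 in the 4 Docetaxel libraries.

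Of the voltage-gated pore genes, KCNQ5 rose with docetaxel, and KCND1 rose with adapalene and with the combination. KCNQ5 (ENSG00000185760, chromosome 6, 72621792 to 73198851, plus strand), a subunit of the slow M-type current, stood at 0.362, 0.284 and 0.620 CPM with Vehicle, 1.64, 1.90, 1.62 and 2.50 with Docetaxel, 0.575, 0.242 and 0.751 with Adapalene, and 0.934, 0.580 and 0.522 with Combo. All 4 Docetaxel libraries lay above all 9 others, including Combo. The log2 fold change against Vehicle was 2.14 with Docetaxel (SE 0.40, edgeR adjusted p = 0.000883), 0.28 with Adapalene (SE 0.49, adjusted p = 0.725) and 0.67 with Combo (SE 0.46, adjusted p = 0.286). Combo stood below Docetaxel by −1.47 on the log2 scale (SE 0.36, edgeR adjusted p = 0.00668). The interaction, the test of whether docetaxel alters what adapalene does, gave −1.75 (SE 0.61, 95% confidence interval −3.04 to −0.46), with an adjusted p of 0.152 over all genes that misses the threshold. The calls on KCNQ5 were kept whichever library was left out, on 19 counts with Vehicle and 110 with Docetaxel.

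KCND1 (ENSG00000102057, chromosome X, 48961378 to 48971569, minus strand), which carries a fast inactivating A-type current, stood at 2.54, 3.05 and 2.97 CPM with Vehicle, 3.20, 6.06, 2.64 and 5.29 with Docetaxel, 5.89, 5.00 and 5.92 with Adapalene, and 6.10, 4.79 and 6.94 with Combo. The Docetaxel libraries divided, 2 with the Vehicle range or just above it and 2 with the range of the adapalene libraries. On the log2 scale its change was 0.97 with Adapalene (SE 0.27, edgeR adjusted p = 0.0221), 1.05 with Combo (SE 0.27, adjusted p = 0.00961) and 0.60 with Docetaxel (SE 0.26, adjusted p = 0.0974). The Adapalene call was lost without Vehicle replicate 1 (adjusted p = 0.0835), Vehicle replicate 2 (0.0553) or Adapalene replicate 1 (0.0695), and without Docetaxel replicate 3 the Docetaxel difference was called (0.0299). Without the 4 libraries with over 2% mitochondrial counts both KCND1 calls were lost (0.0576 with Adapalene, 0.0574 with Combo).

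KCNC4, another voltage-gated pore gene, was called in no comparison. It stood at 8.29 ± 0.939 CPM with Vehicle (SD, n = 3), 9.07 ± 1.02 with Docetaxel (n = 4), 8.27 ± 1.99 with Adapalene (n = 3) and 9.87 ± 0.838 with Combo (n = 3).

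Among the modifier subunits, KCNG1 rose with adapalene and the combination, and KCNG3 rose with the combination. KCNG1 (ENSG00000026559, chromosome 20, 51003656 to 51023129, minus strand), which assembles with voltage-gated pore subunits, stood at 34.1, 41.8 and 32.0 CPM with Vehicle, 28.4, 26.8, 29.6 and 32.3 with Docetaxel, 56.1, 44.6 and 58.7 with Adapalene, and 51.0, 53.5 and 60.9 with Combo. The libraries with adapalene lay above all others. Against Vehicle its log2 fold change was 0.56 with Adapalene (SE 0.12, edgeR adjusted p = 0.00546), 0.62 with Combo (SE 0.12, adjusted p = 0.002) and −0.30 with Docetaxel (SE 0.11, adjusted p = 0.0689). The first 2 of these calls were kept whichever library was left out. The Docetaxel difference was called without Vehicle replicate 3 (adjusted p = 0.0448), Docetaxel replicate 4 (0.0484) or Adapalene replicate 2 (0.0395), and also without the 4 libraries of high mitochondrial share (0.0147), without the filter on low counts (0.0183) or with only the groups compared in the fit (0.0496). KCNG3 (ENSG00000171126, chromosome 2, 42442017 to 42494097, minus strand), another modifier of the same group, stood at 1.67, 1.56 and 1.12 CPM with Vehicle, 1.85, 1.97, 2.56 and 1.64 with Docetaxel, 1.94, 1.61 and 2.17 with Adapalene, and 2.74, 2.97 and 1.72 with Combo. The Combo libraries did not overlap with Vehicle, though their nearest values were close. Its log2 fold change with Combo was 0.78 (SE 0.27, edgeR adjusted p = 0.0449), and its adjusted p was 0.0656 once replicate number entered as a block. This call was also lost without Vehicle replicate 1 (0.0677), 2 (0.0827) or 3 (0.152), Docetaxel replicate 1 (0.0577) or 2 (0.0571), Adapalene replicate 1 (0.0607), or Combo replicate 1 (0.123) or 2 (0.138). Further, it was lost without the 4 libraries of high mitochondrial share (0.0560), without the filter on low counts (0.0958), with only the groups compared in the fit (0.0841) and with DESeq2 (0.0703). KCNV1, a modifier with little current of its own, was called in no comparison and stood at 1.05 ± 0.332 CPM with Vehicle (SD, n = 3), 1.28 ± 0.205 with Docetaxel (n = 4), 1.68 ± 0.0873 with Adapalene (n = 3) and 1.07 ± 0.214 with Combo (n = 3).

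Of the calcium- and pH-gated channels, KCNN4 fell with docetaxel and none was called with adapalene or the combination. KCNN4 (ENSG00000104783, chromosome 19, 43766533 to 43781261, minus strand) stood at 40.3, 48.8 and 60.2 CPM with Vehicle, 29.01, 28.0, 27.3 and 38.8 with Docetaxel, 44.8, 68.9 and 29.03 with Adapalene, and 36.8, 61.8 and 36.9 with Combo. The Docetaxel libraries lay below all Vehicle libraries, though the nearest values were close, and the Adapalene and Combo libraries spread across both. KCNN4 fell by 0.69 on the log2 scale with Docetaxel (SE 0.25, edgeR adjusted p = 0.0478). The call was lost without Vehicle replicate 2 (adjusted p = 0.103) or 3 (0.178), Docetaxel replicate 1 (0.108), 2 (0.116) or 3 (0.0994), Adapalene replicate 1 (0.0591) or Combo replicate 1 (0.0581), and with DESeq2 (0.0947), RLE scaling (0.0514), scaling by library totals (0.0750) or a minimum count of 30 (0.0682). KCNMA1 (ENSG00000156113, chromosome 10, 76869601 to 77638369, minus strand), the most abundant gene of the family by counts, stood at 202, 211 and 233 CPM with Vehicle, 168, 174, 156 and 208 with Docetaxel, 202, 236 and 167 with Adapalene, and 173, 217 and 156 with Combo. Docetaxel replicate 4 lay within the Vehicle range and the other 3 below it. The log2 fold change with Docetaxel was −0.29 (SE 0.13, 95% confidence interval −0.56 to −0.02), with an edgeR adjusted p of 0.104. Without Docetaxel replicate 4 it was −0.38 and called (adjusted p = 0.0495), and without Combo replicate 2 the Combo difference was −0.39 and called (0.0465). The Docetaxel difference of KCNMA1 was also called without the 4 libraries of high mitochondrial share (0.0256), without the filter on low counts (0.00411) or with only the groups compared (0.0365), and the Combo difference without the filter (0.0393). With replicate number as a block the Docetaxel difference was called as well (0.0228). KCNU1, a pH-gated channel known from sperm, stood at 4.08 ± 1.08 CPM with Vehicle (SD, n = 3), 2.94 ± 0.709 with Docetaxel (n = 4), 4.13 ± 0.993 with Adapalene (n = 3) and 4.09 ± 0.765 with Combo (n = 3).

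Among the inward rectifiers, KCNJ2 rose with docetaxel, KCNJ12 rose and KCNJ11 fell with adapalene and the combination. KCNJ2 (ENSG00000123700, chromosome 17, 70168673 to 70180048, plus strand), a strong inward rectifier that clamps the resting potential, stood at 1.45, 1.21 and 1.36 CPM with Vehicle, 3.20, 2.75, 3.07 and 2.43 with Docetaxel, 1.44, 1.86 and 3.50 with Adapalene, and 2.30, 1.74 and 2.69 with Combo. The Docetaxel and the Combo libraries lay above all Vehicle libraries, and the Adapalene libraries ranged from the Vehicle level to above Docetaxel. On the log2 scale its change was 1.08 with Docetaxel (SE 0.29, edgeR adjusted p = 0.0124), 0.74 with Adapalene (SE 0.32, adjusted p = 0.113) and 0.74 with Combo (SE 0.31, adjusted p = 0.0901). The Docetaxel call was lost without Vehicle replicate 2 (adjusted p = 0.0560), and the Combo difference was called without Adapalene replicate 3 (0.0366).

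KCNJ12 (ENSG00000184185, chromosome 17, 21376197 to 21419872, plus strand), a strong inward rectifier close to KCNJ2 in function, stood at 4.56, 6.04 and 4.21 CPM with Vehicle, 4.48, 5.78, 5.54 and 4.44 with Docetaxel, 7.76, 5.97 and 8.17 with Adapalene, and 9.90, 8.56 and 8.43 with Combo. The Combo libraries lay above all others, and 1 Adapalene library lay within the Vehicle range. Against Vehicle its log2 fold change was 0.57 with Adapalene (SE 0.18, edgeR adjusted p = 0.0428), and 0.86 in Combo (SE 0.18, adjusted p = 0.00305). The Adapalene call was lost without Vehicle replicate 1 (adjusted p = 0.136) or 3 (0.131), Docetaxel replicate 1 (0.0523), Adapalene replicate 1 (0.133) or 3 (0.116), or Combo replicate 1 (0.0501), and the Combo call was kept in all 13. The Adapalene call was also lost without the 4 libraries of high mitochondrial share (0.227) or without the filter on low counts (0.0675). With only the groups compared (0.0904) or with replicate number as a block (0.0636) it was lost as well. KCNJ12 has a near-identical copy, KCNJ18, at 3 counts in all. The treatment of reads common to both was not stated in what was used here, so its level is uncertain.

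KCNJ11 (ENSG00000187486, chromosome 11, 17385859 to 17389331, minus strand), a pore of the ATP-sensitive channel, stood at 3.98, 3.55 and 5.45 CPM with Vehicle, 2.56, 2.32, 2.73 and 4.44 with Docetaxel, 3.23, 1.61 and 2.09 with Adapalene, and 1.99, 2.47 and 2.24 with Combo. All libraries with adapalene lay below all Vehicle libraries. It fell by 0.90 on the log2 scale with Adapalene (SE 0.29, edgeR adjusted p = 0.0432), and by 0.96 in Combo (SE 0.29, adjusted p = 0.0233), and the Docetaxel difference was −0.51 (adjusted p = 0.157). The Adapalene call was lost without Vehicle replicate 1 (0.0797), 2 (0.0550) or 3 (0.145), Docetaxel replicate 1 (0.0542) or 3 (0.0521), or Adapalene replicate 2 (0.138) or 3 (0.0959). The Combo call on KCNJ11 was lost without Vehicle replicate 3 (0.0978), Combo replicate 1 (0.0700) or Combo replicate 3 (0.0641), and without Docetaxel replicate 4 the Docetaxel difference was called (0.0380). With replicate number as a block that Docetaxel difference was called too (0.0427). Without the 4 libraries of high mitochondrial share both KCNJ11 calls were lost (0.158 with Adapalene, 0.0902 with Combo), and that with Adapalene also when scaled by library totals (0.0627) or with only the groups compared (0.0710). The other ATP-sensitive pore gene, KCNJ8, stood at 2.21 ± 0.473 CPM with Vehicle (SD, n = 3), 2.47 ± 0.301 with Docetaxel (n = 4), 2.64 ± 0.993 with Adapalene (n = 3) and 2.50 ± 0.477 with Combo (n = 3). KCNJ14, a further inward rectifier, stood at 2.72 ± 0.358, 3.00 ± 0.537, 3.61 ± 1.87 and 3.02 ± 0.987 CPM in the same order. Neither was called in any comparison. Exons of KCNJ14 share 350 of its 4340 bases with GRWD1 on the same strand, at 14318 counts against its 552, so its level is uncertain.

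Of the 6 measured auxiliary genes, KCNAB2 fell with docetaxel, and none was called against Vehicle with adapalene or the combination. KCNAB2 (ENSG00000069424, chromosome 1, 5991466 to 6101193, plus strand), a beta subunit with an aldo-keto reductase fold, stood at 31.9, 37.8 and 36.5 CPM with Vehicle, 19.7, 20.9, 22.7 and 26.1 with Docetaxel, 44.7, 57.4 and 35.0 with Adapalene, and 34.3, 49.98 and 36.1 with Combo. The Docetaxel libraries were the 4 lowest of all 13. KCNAB2 fell by 0.66 on the log2 scale with Docetaxel (SE 0.16, edgeR adjusted p = 0.00761), a call kept whichever library was left out. It differed by 0.37 with Adapalene (adjusted p = 0.137), which was called without Adapalene replicate 3 (0.0313), without the 4 libraries of high mitochondrial share (0.0307) or without the filter on low counts (0.0273), and by 0.18 with Combo (adjusted p = 0.459). Exons of KCNAB2 share 111 bases with NPHP4 on the opposite strand, which held 7872 counts against its 6309. Whether the counting used strand was not stated in what was used here. The other 5 auxiliary genes were called in no comparison. KCNIP3, a calcium-binding protein that acts with the A-type pores, stood at 9.57 ± 0.996 CPM with Vehicle (SD, n = 3), 8.12 ± 0.490 with Docetaxel (n = 4), 9.25 ± 0.780 with Adapalene (n = 3) and 9.71 ± 0.823 with Combo (n = 3). KCNIP2, of the same group, ranged from 1.67 to 2.34 CPM in group means, KCNAB3 from 2.60 to 3.70, and KCNMB3 and KCNMB4, beta subunits of the large conductance channel, from 1.93 to 2.58 and from 1.20 to 1.67. Exons of KCNMB3 share 3403 of its 8979 bases with PIK3CA on the opposite strand, at 8653 counts against its 430. They also share 864 bases with the pseudogene LRRFIP1P1 on the same strand, at 529 counts.

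Adding adapalene to docetaxel raised 7 potassium channel genes and lowered 1, whereas adding docetaxel to adapalene changed none past the threshold. Against Docetaxel, KCNK9 stood higher in Combo by 2.10 on the log2 scale (SE 0.35, edgeR adjusted p = 0.000595), KCNK15 by 1.74 (SE 0.32, adjusted p = 0.00129), KCNG1 by 0.91 (SE 0.11, adjusted p = 9.67e-05) and KCNAB2 by 0.84 (SE 0.16, adjusted p = 0.002). KCNJ12 rose by 0.83 and KCNK6 by 0.40, and KCNQ5 was the gene that fell. These were 8 of 30 (26.7%), against 24.0% of all genes tested (12.8% higher, 11.2% lower), and the median log2 fold change was 0.20, against 0.01 over all genes. KCNK9, KCNK15 and KCNQ5 were among the 8, so here too neither the split by direction nor the median is read against all genes. Of these calls, that on KCNK6 (adjusted p = 0.0133) was lost without Combo replicate 3 (0.0677) or without the 4 libraries of high mitochondrial share (0.0603). KCNN4, at 0.55 (edgeR adjusted p = 0.115), was called without Adapalene replicate 3 (0.0485) or without the 4 libraries of high mitochondrial share (0.0106). It was also called without the filter on low counts (2.65e-06) or with only the groups compared (0.0411). Without the filter the log2 fold change of KCNN4 was still 0.55. The lower adjusted p thus came with no larger difference and is not read as firmer.

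Between Combo and Adapalene, 0 of 30 genes were called, where 0.0381% of all genes were (0.0381% higher, 0.0% lower). At an unadjusted p under 0.05 stood 3 genes, KCNK1, KCNK2 and KCNV1, and DESeq2 also called 0. The log2 difference of KCNK1 was 0.19 (95% confidence interval 0.03 to 0.34), that of KCNK2 −0.73 (−1.42 to −0.05) and that of KCNV1 −0.65 (−1.26 to −0.03), with edgeR adjusted p of 0.869, 0.92 and 0.931. The interaction called 0 of 30, against 1.44% of all genes (0.21% higher, 1.23% lower), with 3 genes (KCNJ2, KCNQ5 and KCNV1) at an unadjusted p under 0.05 and 0 by DESeq2. For KCNJ2 the interaction was −1.08 (95% confidence interval −1.96 to −0.20, edgeR adjusted p = 0.198), and for KCNV1 −0.93 (−1.77 to −0.08, adjusted p = 0.249). Without any filter on low counts 2 interactions were called, KCNAB2 at 0.50 (adjusted p = 0.0445) and KCNN4 at 0.64 (adjusted p = 0.00121). With the filter they were 0.47 and 0.61 (edgeR adjusted p = 0.318 and 0.402), so the estimates moved little.

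Set directly against each other, the 2 drugs differed at 8 genes. KCNQ5 stood higher with Docetaxel, and 7 stood higher with Adapalene, among them KCNK9, KCNK15, KCNAB2, KCNG1, KCNJ12 and KCNK6. This was 26.7% of the 30, against 29.7% of all genes tested (14.1% higher, 15.6% lower). The split by direction is again not read against all genes, since KCNK9, KCNK15 and KCNQ5 were among the 8. KCNK9 differed by −2.33 on the log2 scale as Docetaxel minus Adapalene (SE 0.35, edgeR adjusted p = 0.00017), KCNK15 by −1.97 (SE 0.32, adjusted p = 0.000321), KCNAB2 by −1.03 (SE 0.16, adjusted p = 0.000313) and KCNG1 by −0.86 (SE 0.11, adjusted p = 9.13e-05). KCNQ5 differed by 1.87 (SE 0.39, adjusted p = 0.00189). The call on KCNJ12 (−0.53, adjusted p = 0.0287) was lost without Docetaxel replicate 1 (0.0806) or 4 (0.0663), or Adapalene replicate 1 (0.107) or 3 (0.0810), without the 4 libraries of high mitochondrial share (0.133), and with replicate number as a block (0.0887). That on KCNK6 (−0.33, adjusted p = 0.0303) was lost without Docetaxel replicate 1 (0.0550), 2 (0.0805) or 4 (0.0569), or Adapalene replicate 1 (0.0621), 2 (0.0529) or 3 (0.0889), and without those 4 libraries (0.0710) or the filter on low counts (0.0617). A call on KCNN4 (−0.63, edgeR adjusted p = 0.0658) was gained without Docetaxel replicate 4 (0.0467), Adapalene replicate 3 (0.00602) or Combo replicate 2 (0.0381). It was also gained without the 4 libraries of high mitochondrial share (0.00179), without the filter on low counts (4.11e-08) or with replicate number as a block (0.0349). Without the filter the KCNN4 difference was −0.62, close to that with it, so the low adjusted p is not read as firmer. One on KCNJ2 (0.35, adjusted p = 0.362) was gained without Adapalene replicate 3 (0.0286) or without those 4 libraries (0.0214).

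The effect of adapalene can be read from separate libraries, as Adapalene against Vehicle and as Combo against Docetaxel. The sign was the same in 20 of 30 measured genes (66.7%), and in 66.7% of all genes tested. The 7 genes called in the first reading all had the same sign in the second, as did 87.8% of all genes called there. KCNK9 and KCNK15 are among the 7 and were measured through their libraries with adapalene, in Adapalene and in Combo. They held 237 and 185 counts with adapalene, against 60 and 69 without it. For these genes the second reading is therefore no independent check of the first, and the shares of same sign are not read against all genes. KCNK9 gave 2.45 and 2.10, KCNK15 1.66 and 1.74, KCNG1 0.56 and 0.91, KCNJ12 0.57 and 0.83, KCNK6 0.52 and 0.40, KCND1 0.97 and 0.45 and KCNJ11 −0.90 and −0.45 on the log2 scale. The last 2, KCND1 and KCNJ11, did not pass the threshold in the second reading (edgeR adjusted p = 0.179 and 0.263). For docetaxel, read as Docetaxel against Vehicle and as Combo against Adapalene, the sign was the same in 20 of 30 genes (66.7%, all genes 64.6%). KCNQ5 gave 2.14 and 0.39, KCNJ2 1.08 and 0.00, KCNN4 −0.69 and −0.08, KCNAB2 −0.66 and −0.19, and KCNK1 0.27 and 0.19. KCNQ5 was measured mainly through its Docetaxel libraries (110 of 179 counts), so here too the share of same sign is not read against all genes. The difference between the readings is the interaction, which called none of these genes.

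**Figure D4:**
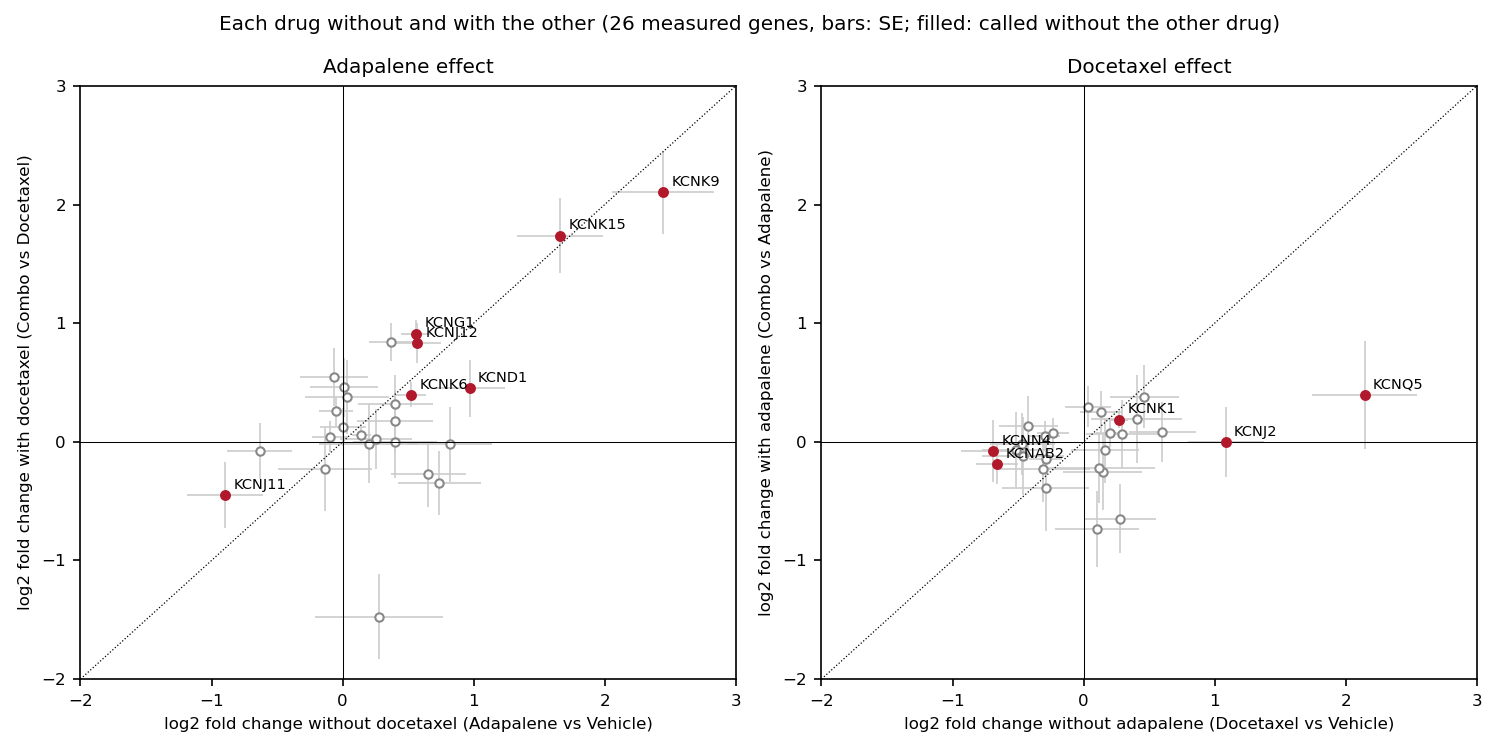
Log2 fold change of each drug without (horizontal axis) and with (vertical axis) the other drug for 26 of the 30 measured genes, adapalene on the left and docetaxel on the right, with bars of 1 SE, the dotted line of equal effect and filled points for genes called without the other drug. KCNK9 and KCNK15 lie near the dotted line for adapalene, and KCNQ5 and KCNJ2 lie well under it for docetaxel. KCNK9 and KCNK15 were measured through their libraries with adapalene, and KCNQ5 mainly through its Docetaxel libraries.

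Beside the channel genes, 56 genes for potassium pumps, cotransporters, other potassium-permeable channels, channel partners and the kinases and ligases that act on them were listed, of which 30 passed the filter. With Docetaxel 8 rose and 3 fell, with Adapalene 8 rose and 1 fell, and with Combo 9 rose and 2 fell, with median log2 fold changes of 0.04, 0.13 and 0.13 (all genes −0.02, 0.02 and 0.02). Over all genes tested, 13.2% were higher and 12.8% lower with Docetaxel, 9.25% and 9.16% with Adapalene, and 13.5% and 12.3% with Combo. ABCC9, the sulfonylurea receptor that joins KCNJ8 or KCNJ11 to form the ATP-sensitive channel, stood at 4.29 ± 1.27 CPM with Vehicle (SD, n = 3), 20.7 ± 4.78 with Docetaxel (n = 4), 8.29 ± 4.97 with Adapalene (n = 3) and 11.1 ± 4.30 with Combo (n = 3). It rose by 2.28 on the log2 scale with Docetaxel (SE 0.36, edgeR adjusted p = 0.000473), kept whichever library was left out. With Combo it rose by 1.38 (SE 0.39, adjusted p = 0.0168), which failed without Vehicle replicate 3 (0.0680) or Combo replicate 3 (0.0792).

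Of the regulators, SGK1, a kinase that raises the surface level of several ion channels, rose from 11.2 ± 0.881 CPM with Vehicle to 35.5 ± 5.75 with Docetaxel, by 1.67 on the log2 scale (SE 0.29, edgeR adjusted p = 0.000931, n = 3 and 4). With Combo SGK1 rose by 1.21 (adjusted p = 0.00989, lost at 0.0552 without Combo replicate 3). With Adapalene it rose by 0.98 (adjusted p = 0.0396), but not when Vehicle replicate 1 (0.0842), 2 (0.113) or 3 (0.0895), Docetaxel replicate 1 (0.0515) or 3 (0.0501), or Adapalene replicate 1 (0.0696) or 3 (0.189) was left out. NEDD4L, a ubiquitin ligase that acts on channels including the KCNQ group, rose from 226 ± 14.7 CPM with Vehicle to 422 ± 44.0 with Docetaxel (by 0.90 on the log2 scale, SE 0.14, edgeR adjusted p = 0.000345), and stood lower in Combo than in Docetaxel by −0.67 (SE 0.13, adjusted p = 0.00311).

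TMEM38A, an intracellular potassium-permeable channel of the endoplasmic reticulum, rose from 17.7 ± 1.06 CPM with Vehicle to 25.9 ± 0.517 with Adapalene and 26.8 ± 1.27 with Combo (SD, n = 3 each), by 0.55 and 0.60 on the log2 scale (edgeR adjusted p = 0.000737 and 0.000217). Its Docetaxel call (0.23, adjusted p = 0.0482) was lost on leaving out any of 12 of the 13 libraries. ATP1B2, a beta subunit of the sodium-potassium pump, rose by 1.89 with Adapalene (SE 0.58, edgeR adjusted p = 0.023), and 1.66 in Combo (SE 0.58, adjusted p = 0.0325), at 0.209 ± 0.133 CPM with Vehicle and 0.782 ± 0.0287 and 0.662 ± 0.128 CPM with the drug. With Adapalene ATP1B2 missed the threshold when Vehicle replicate 2 (0.0887) or 3 (0.0783) was left out, or Adapalene replicate 1 (0.0662) or 2 (0.0502). Its Combo call was lost without Vehicle replicate 2 (0.110) or 3 (0.114), or Combo replicate 1 (0.103) or 3 (0.0611). TMEM175, the lysosomal potassium channel, rose by 0.63 with Adapalene (SE 0.18, edgeR adjusted p = 0.0262), but not when Vehicle replicate 1 (0.0996) or 2 (0.110) or Adapalene replicate 3 (0.0772) was left out.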

How the data were processed

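RNA was selected by polyadenylation and sequenced as strand-preserving single reads of 120 bp, per the labels' protocols. The deposited table holds raw counts per Ensembl gene and library as made by the authors. The build GRCh38.p13 and the tools STAR 2.7.10a, FastQC and DESeq2 are named without roles, per the submitters' processing notes. Neither the counting program nor its use of strand is given in the sources used here. Places and exon lengths are from GENCODE release 29 on GRCh38, where all 95 genes were found. A length of exons is the union over transcripts.

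The test was that of edgeR 4.0.16 under R 4.3.3. Genes were filtered with filterByExpr by group (minimum count 10, minimum total 15), TMM scaling was applied, and a quasi-likelihood model of 4 group means was fitted to all 13 libraries, with Benjamini-Hochberg adjustment over the 15734 genes kept. The model was tested on simulated data. The SE and the 95% confidence intervals come from the same fit. Alternatives were DESeq2 1.42.0, other scalings and filters, only the groups compared, the replicate number as a block, each library left out in turn, and the 4 libraries with over 2% mitochondrial counts left out. The members, the gene lists and the rule for naming genes (those called against Vehicle, the 5 highest per length, those next to the 130-count limit, and the 6 genes of the transport list with the largest called change) were chosen with earlier results of these data known. Results for some measured genes are counted in the totals but not reported here by name.

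Libraries of 1 group differed by more than sampling noise (chi-square per degree of freedom 2.38 to 23.5), and each was counted once. The replicate numbers carry no stated pairing. Between Vehicle and Combo, same-numbered libraries departed from the group means in the same sense (r across genes 0.257, 0.159 and 0.174 for numbers 1 to 3). The blocked value therefore stands beside the 1 Combo call against Vehicle that the block ended, and also beside the calls on KCNJ12 that it ended. It is given too for the Docetaxel differences of KCNMA1, KCNJ11 and KCNN4 that were called only with the block or other alternatives. In no comparison other than Vehicle and Combo did every same-numbered pair exceed 0.1. Adapalene and Combo gave 0.0202, 0.529 and 0.415 for numbers 1 to 3.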

Additional observations from a re-analysis of the deposited data

Results flagged for a closer look

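Within the Docetaxel group, the 1 group of 4 libraries, each of the 30 measured genes was examined for a library that stands far from the others by Dixon's criterion, which chance alone meets in about 1 of 20 groups. It was met by 3 genes. KCNMB4 stood at 1.79 CPM in Docetaxel replicate 3, against 0.924, 1.03 and 1.06 CPM in the other libraries. KCNN4 stood at 38.8 CPM in Docetaxel replicate 4, against 27.3, 28.0 and 29.01 CPM. KCNV1 stood at 1.58 CPM in Docetaxel replicate 4, against 1.14, 1.19 and 1.20 CPM. Docetaxel replicate 4 is the Docetaxel library with over 2% mitochondrial counts, whose part in these values was not tested.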

How the results depend on the processing

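Of the 38 calls on single genes, 24 were kept under every alternative in which the gene was tested and 25 whichever library was left out, and 0 changed direction. With a minimum count of 30, 25 of the 30 genes were tested, and KCNQ5, which holds 3 of the 24 calls, was not among them. Leaving out 1 library moved the count of called genes between 2 and 9 for Docetaxel against Vehicle (6 with all libraries) and between 4 and 7 for Adapalene against Vehicle (7 with all libraries). The lowest came without Vehicle replicate 2 for Docetaxel, where KCNAB2 and KCNQ5 were kept, and without Vehicle replicate 1 for Adapalene, where KCNG1, KCNK6, KCNK15 and KCNK9 were kept. The interaction count was 2 without the filter on low counts and 0 otherwise. With the replicate number as a block, 8 genes were called for Docetaxel, 6 for Adapalene and 8 for Combo against Vehicle, 7 for Combo against Docetaxel, 8 for Docetaxel against Adapalene, and 0 for Combo against Adapalene and the interaction. Whether the numbers pair libraries is not stated, and only between Vehicle and Combo did every same-numbered pair have r above 0.1. Between Adapalene and Combo r was 0.529 and 0.415 for numbers 2 and 3, and 0.0202 for number 1. Without the 4 libraries with over 2% mitochondrial counts, 8, 5 and 6 genes were called against Vehicle with Docetaxel, Adapalene and Combo. Shares of all genes called under these alternatives are not given here, so the moves are not read as particular to the potassium channel genes. No scaling moved the median of all genes by 0.1 on the log2 scale. At the depth of these libraries, differences in genes near 1 CPM were detectable only where they were large, and the 65 genes that were not measured allow no statement on change.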

Other observations

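Replicate 2 held the highest value of its group in both Adapalene and Combo for 8 of the 30 measured genes, among them KCNAB2, KCNK5, KCNMA1, KCNMB4, KCNN4 and KCNU1. The share over all genes is not given here, so this count is not read as particular to the potassium channel genes. Adapalene and Combo replicates with the same number deviated from their group means with r of 0.0202, 0.529 and 0.415 across genes for numbers 1 to 3. The potassium channel genes together took 0.0468% ± 0.00343 of all counts with Vehicle (SD, n = 3), 0.0413% ± 0.00404 with Docetaxel (n = 4), 0.0525% ± 0.00511 with Adapalene (n = 3) and 0.0506% ± 0.00513 with Combo (n = 3).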
